A study of Homo sapiens with 2 samples.

Results

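The genes of MHC class II antigen presentation were examined in Molm13 cells given the UNC5B construct or the empty vector. The 10 members were chosen by gene name: HLA-DRA, HLA-DRB1, HLA-DPA1, HLA-DPB1, HLA-DQA1, HLA-DQB1, HLA-DMA, HLA-DMB, CD74 and CIITA. All 10 were found once each among the 50868 genes of the expression table. The rule itself uses names and no measured value, and it was written with earlier results of these data known.

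Molm13 (MOLM-13 in the labels) is an established human acute myeloid leukemia line that carries the KMT2A::MLLT3 fusion. RNA-seq was made from 1 library of cells with the control construct (Vector) and 1 library of cells with the overexpression construct (OE-UNC5B). According to the study's methods, UNC5B was delivered by a lentivirus packaged in HEK-293T cells, with a CMV promoter, a FLAG tag, mCherry and puromycin resistance, and infected cells were selected with puromycin. The labels give both libraries the same cell line and growth medium, and name no time point and no further agent. UNC5B, the targeted gene, had 0 reads in Vector and in the other library alike, so the construct was not seen in these values. The second library is therefore called the library labelled OE-UNC5B, and every direction given here rests on its label.

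MHC class II molecules are surface heterodimers of an alpha and a beta chain that show peptides from the endosome to CD4+ T cells. CD74, the invariant chain, occupies the peptide groove during assembly and is cut down to a fragment called CLIP, which HLA-DM removes so that a peptide can bind. CIITA is the master coactivator of these genes and acts through the RFX, CREB and NF-Y factors on the X and Y boxes of their promoters. In the myeloid lineage, class II is known from dendritic cells, monocytes and macrophages, and acute myeloid leukemia cells vary in it.

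The promoters are shown first because the X and Y boxes are the textbook shared elements of this gene group. RefSeq windows on GRCh38.p14, from 250 bases before to 50 bases after a start, were matched by symbol for 8 of the 10 members, with 9 windows in all. There was no entry for HLA-DRA or CIITA. Motifs were searched on both strands: the Y box core (CTGATTGG), the shorter NF-Y motif inside it (ATTGG), part of the X1 box (GNNACNGAT) and the core of the X2 box (TGACG). Each of the 5 stretches below has 110 bases, ends 16 bases before the start and is printed 5′ to 3′ on the strand of its gene. Capitals mark the part of the X1 box on the gene's strand and the Y box core or the NF-Y motif on either strand.
HLA-DRB1: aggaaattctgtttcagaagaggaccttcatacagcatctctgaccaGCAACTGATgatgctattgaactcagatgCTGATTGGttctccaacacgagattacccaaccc
HLA-DQB1: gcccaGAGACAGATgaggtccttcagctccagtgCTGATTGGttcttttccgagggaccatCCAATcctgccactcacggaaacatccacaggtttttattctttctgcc
HLA-DMA: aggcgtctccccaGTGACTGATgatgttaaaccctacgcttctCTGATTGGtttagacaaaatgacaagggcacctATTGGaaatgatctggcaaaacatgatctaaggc
HLA-DMB: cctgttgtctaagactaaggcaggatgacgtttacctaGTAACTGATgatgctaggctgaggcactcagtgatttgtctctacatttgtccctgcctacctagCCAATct
CD74: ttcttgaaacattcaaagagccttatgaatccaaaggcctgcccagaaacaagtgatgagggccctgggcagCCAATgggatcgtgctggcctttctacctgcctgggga

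On GRCh38.p14 these windows lie at chr6:32589864-32589973 for HLA-DRB1, chr6:32666673-32666782 for HLA-DQB1, chr6:32953113-32953222 for HLA-DMA, chr6:32941044-32941153 for HLA-DMB and chr5:150412926-150413035 for CD74, all on the minus strand. In 3 members, HLA-DRB1, HLA-DQB1 and HLA-DMA, the X1 part was followed by the Y box core on the same strand, and the NF-Y motif began 32, 32 and 33 bases downstream of the first base of the X1 part. Of all 35116 windows of the RefSeq table, 0.0826% held these letters in this order within 50 bases. Taken alone, the Y box core was in 3.97% of all windows, the NF-Y motif in 34.6%, the X1 part in 6.55% and the X2 core in 24.6%. Among the members, the X2 core was in windows of HLA-DPA1, HLA-DPB1, HLA-DQB1 and HLA-DMB. It was not between the X1 part and the Y box core in HLA-DRB1, HLA-DQB1 or HLA-DMA. The stretches left out are those of HLA-DPA1, HLA-DPB1 and HLA-DQA1, whose windows held no exact match to the X1 part or Y box core. These genes also had 0 reads in both libraries, and a link between reads and letters was not tested. HLA-DPB1 and HLA-DQA1 held the NF-Y motif, and the windows of HLA-DPA1 did not. HLA-DMB held the X1 part without a Y box core behind it. The window of CD74 held the NF-Y motif on the opposite strand and no X1 part. A match describes letters and is not a bound site, and a missing match to these exact letters does not show that a box is missing.

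CD74 made up nearly all of the reads of the 10 members, and the chains that present peptide were close to the lower limit of the counts in both libraries. Vector held 13715566 counted reads, and its counterpart labelled OE-UNC5B held 15637137. Levels are given as CPM (reads scaled to the counted reads of the library) or as the deposited FPKM (reads scaled to gene length as well), which is used to compare levels between genes unless another scale is named. Ranges given with a level or a fold are 95% Clopper-Pearson intervals, which cover the counting error of these 2 libraries and nothing else. With 1 library per group there was no replicate check and no test of the conditions, and differences between cultures cannot be told apart from the construct. As the RNA came from bulk cells, fewer cells with a transcript and less of it per cell cannot be told apart either.

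CD74 (ENSG00000019582, chr5:150401637-150412929, minus strand, GRCh38) had 3175 reads in Vector and 4788 in the other library. This was 231 CPM (223.5 to 239.7) against 306 CPM (297.6 to 315.0), or 35.7 and 47.3 FPKM. After TMM scaling the fold was 1.28 (1.22 to 1.34), or 0.36 on the log2 scale, towards the library labelled OE-UNC5B. CD74 stood at rank 812 by FPKM in Vector, above 96.0% of the genes with reads there, and at rank 558 in the library labelled OE-UNC5B, above 97.2%. CD74 was thus among the upper few percent of expressed genes in each library.

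Among the classical chains, HLA-DRA (ENSG00000204287, chr6:32439842-32445046, plus strand), the single alpha chain of HLA-DR, held the most reads. It had 13 reads in Vector against 29 in the library labelled OE-UNC5B, or 0.948 CPM (0.505 to 1.62) and 1.85 CPM (1.24 to 2.66), and 0.577 and 1.13 FPKM. The fold was 1.89 (0.953 to 3.97), an interval that included equality. HLA-DRB1 (ENSG00000196126, chr6:32552990-32589848, minus strand), its beta chain partner, had 3 and 7 reads, with a ratio of 1.98 (0.452 to 11.9). HLA-DQB1 (ENSG00000179344, chr6:32659467-32668383, minus strand), the beta chain of HLA-DQ, had 3 and 5 reads, with a ratio of 1.41 (0.275 to 9.11). With so few reads, both intervals ran from below equality to several-fold above it.

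The remaining classical chains had no reads. HLA-DPA1 (ENSG00000231389, chr6:33064569-33080775, minus strand), HLA-DPB1 (ENSG00000223865, chr6:33075926-33087201, plus strand) and HLA-DQA1 (ENSG00000196735, chr6:32628179-32647062, plus strand) were at 0 in both libraries. The floor used here for a count of 0 is 3 reads, a 1-sided limit of 0.219 CPM in Vector and 0.192 CPM in the library labelled OE-UNC5B, and the upper end of the 2-sided Clopper-Pearson interval was 0.269 and 0.236 CPM. HLA-DQ was thus represented by beta chain reads alone and HLA-DP by none. In neither library were alpha and beta chain reads detected together for any classical isotype but HLA-DR.

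Added up, the 6 classical chains had 19 reads in Vector against 41 in the library labelled OE-UNC5B, or 0.716 and 1.40 FPKM. Their summed fold was 1.83 (1.04 to 3.34). This sum was formed after the single genes had been seen, and HLA-DRA supplied 68.4% (43.4 to 87.4) of its reads in Vector against 70.7% (54.5 to 83.9) in the library labelled OE-UNC5B. The sum therefore mostly repeats HLA-DRA.

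The HLA-DM chains, which edit the peptide in the endosome, gave opposite signs. HLA-DMA (ENSG00000204257, chr6:32948613-32969094, minus strand) had 43 reads in Vector against 33 in the library labelled OE-UNC5B, or 3.14 CPM (2.27 to 4.22) and 2.11 CPM (1.45 to 2.96). Its fold was 0.651 (0.401 to 1.05). HLA-DMB (ENSG00000242574, chr6:32934629-32941070, minus strand) had 2 and 10 reads, with a ratio of 4.24 (0.904 to 39.8). Both intervals included equality, so neither direction was larger than the counting error. The pair together had 45 and 43 reads, with a fold of 0.811 (0.521 to 1.26), and HLA-DMA gave 95.6% (84.9 to 99.5) of them in Vector against 76.7% (61.4 to 88.2) in the library labelled OE-UNC5B.

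CIITA (ENSG00000179583, chr16:10877198-10932281, plus strand) had 22 reads in Vector against 42 in the library labelled OE-UNC5B, or 1.60 CPM (1.01 to 2.43) and 2.69 CPM (1.94 to 3.63). The FPKM were 0.0627 and 0.105. The fold was 1.62 (0.945 to 2.85), and this interval too included equality. At these FPKM, CIITA was at rank 18050 in Vector against 17064 in the library labelled OE-UNC5B, of 20246 and 20216 genes with reads.

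**Figure D1:**
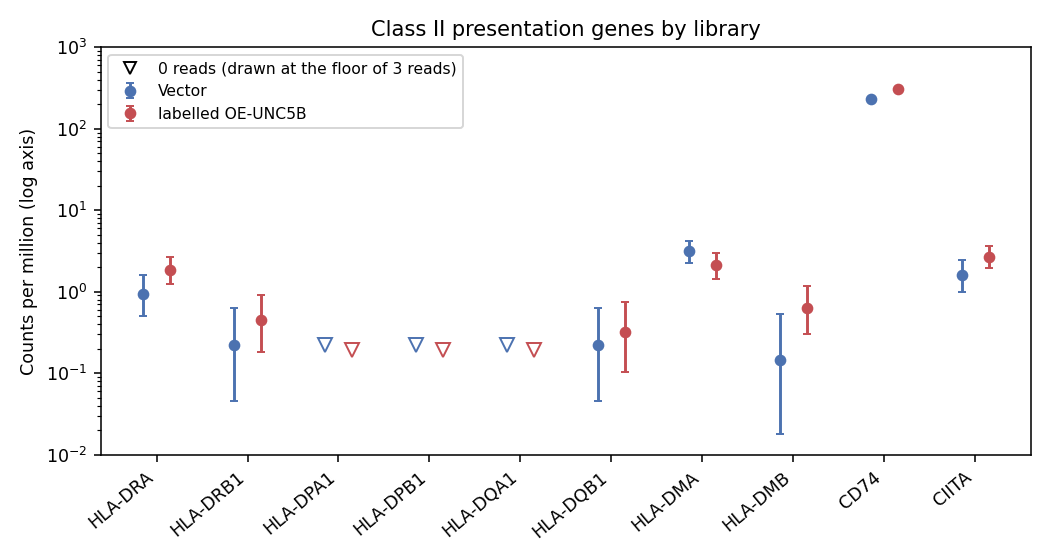
Level of each of the 10 class II members in CPM (log axis) in Vector and the library labelled OE-UNC5B, with points for the single library of each group and bars for the 95% Clopper-Pearson interval of the reads. CD74 lies at 231 and 306 CPM, HLA-DRA, HLA-DMA and CIITA lie between 0.948 and 3.14 CPM, and HLA-DPA1, HLA-DPB1 and HLA-DQA1 had 0 reads in both libraries, and are drawn as open triangles at the floor of 3 reads.

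Of the 10 members, 3 had no reads and 1 (HLA-DQB1) had 8 reads over both libraries, which left 6 with at least 10. Of these 6, 1 member, HLA-DMB, was at least 2-fold higher in the library labelled OE-UNC5B, where 5.15% of the 15384 genes with at least 10 reads were. HLA-DMB passed the filter of 10 reads through the 10 reads of that library, so the count of members past 2-fold is partly set by the filter. HLA-DRB1, with 3 and 7 reads, just reached it with both libraries together. Among genes with at most 20 reads, 16.04% of 1559 were at least 2-fold higher. None of the 6 was at least 2-fold lower, against 4.79% of all genes.

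The interval of the reads lay wholly above equality for 1 of the 6 members, CD74, against 25.1% of all genes compared. It lay wholly below for 0 of the 6, against 26.3%. The 6 log2 fold changes were 0.36 for CD74, 0.89 for HLA-DRA, 0.86 for HLA-DRB1, -0.61 for HLA-DMA, 1.83 for HLA-DMB and 0.68 for CIITA. Of the 6, 5 were thus above 0 and HLA-DMA alone below it, with a median of 0.77 beside -0.01 over all genes compared. Because HLA-DMB passed the filter through its higher library, this median is a description and supports no direction. It was 0.36 over the 3 members with at least 50 reads.

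**Figure D2:**
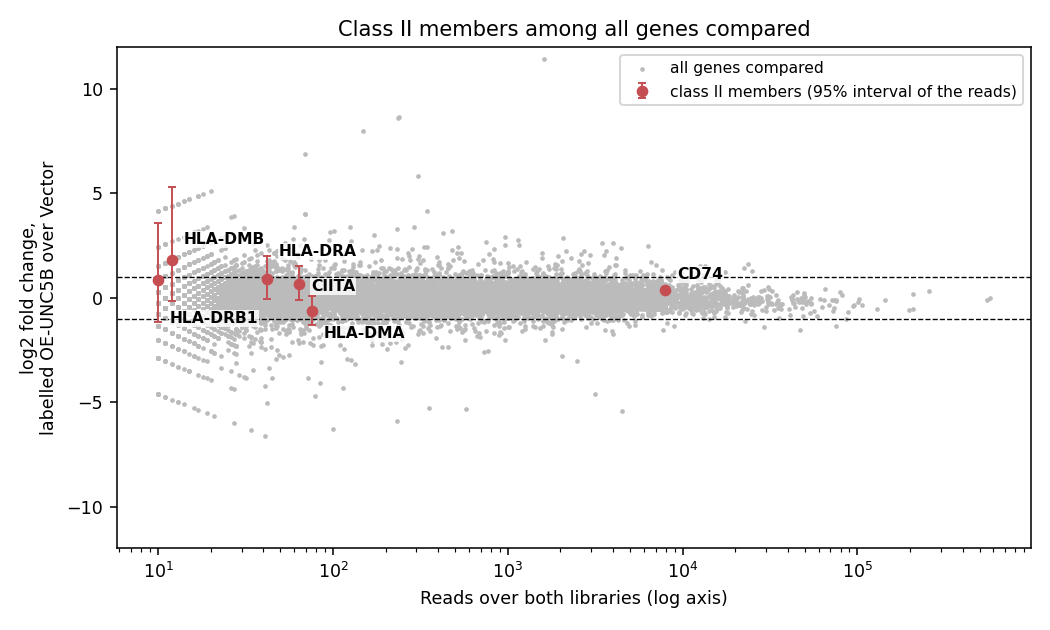
Log2 fold change of the library labelled OE-UNC5B over Vector (vertical axis) against the reads over both libraries (horizontal log axis), with grey points for the 15384 genes compared, red points for the 6 members with at least 10 reads, red bars for their 95% intervals and dashed lines at 2-fold. Of the 6 members, HLA-DMB at 1.83 lies outside the dashed lines, and the interval of CD74 alone (0.29 to 0.42) leaves out 0.

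Per length, the order of the members was led by CD74 in each library. In Vector the order by FPKM went on with HLA-DMA at 0.627, HLA-DRA at 0.577, HLA-DRB1 at 0.109, CIITA at 0.0627, HLA-DQB1 at 0.0299 and HLA-DMB at 0.0159. Below CD74, no neighbours in that order differed beyond their counting intervals. In the library labelled OE-UNC5B the order was HLA-DRA at 1.13, HLA-DMA at 0.422, HLA-DRB1 at 0.222, CIITA at 0.105, HLA-DMB at 0.0699 and HLA-DQB1 at 0.0437, and the intervals of HLA-DRA (0.756 to 1.62) and HLA-DMA (0.290 to 0.593) did not meet.

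That order depends on the gene length. The deposited FPKM imply lengths of 1.64 kb for HLA-DRA, 5.00 kb for HLA-DMA, 6.48 kb for CD74, 9.15 kb for HLA-DMB and 25.6 kb for CIITA, whereas the canonical GENCODE transcripts have 1235, 1093, 1653, 1348 and 16061 bases. With reads per kilobase of the canonical transcript, scaled as CPM, CD74 stood at 140 and 185, HLA-DMA at 2.87 and 1.93, and HLA-DRA at 0.767 and 1.502. HLA-DMA then stood above HLA-DRA in each library, with intervals that did not meet in Vector (2.08 to 3.86 against 0.409 to 1.31) and did meet in the library labelled OE-UNC5B (1.33 to 2.71 against 1.01 to 2.16). CIITA became the lowest of the 7 members with reads, at 0.0999 in Vector against 0.167 in the library labelled OE-UNC5B. CD74 led on both scales.

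The distance between CD74 and the chains it accompanies was large in each library. CD74 gave 97.4% (96.8 to 97.9) of all member reads in Vector against 97.4% (97.0 to 97.9) in the library labelled OE-UNC5B, and the classical chains gave 0.583% (0.351 to 0.908) and 0.834% (0.599 to 1.13). By FPKM, CD74 exceeded HLA-DRA 61.9-fold in Vector against 41.9-fold in the library labelled OE-UNC5B, and per kilobase of the canonical transcript 182-fold and 123-fold. The summed FPKM of the members was 37.2 and 49.3, a ratio of 1.33 before TMM scaling that follows CD74. Without CD74 the sum was 1.42 and 1.99.

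The class I genes give the scale of presentation genes in the same cells. HLA-B, a class I heavy chain, had 6871 reads in Vector against 8376 in the library labelled OE-UNC5B, with a log2 fold change of 0.05. HLA-B exceeded HLA-DRA by FPKM 152-fold in Vector against 82.9-fold in the library labelled OE-UNC5B. CD74, in contrast, reached 0.408 and 0.505 of the FPKM of HLA-B.

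The class II region of chromosome 6 was read along its length, from HLA-DRA to HLA-DPB2. It held 34 genes of the table, of which 19 were HLA genes or pseudogenes. Of those 19, 12 had 0 reads in both libraries and 5 had at least 10 reads over both (HLA-DRA, HLA-DRB1, HLA-DOB, HLA-DMB and HLA-DMA). Of the 15 other genes, 7 had no reads and 8 had at least 10. Around HLA-DOB and the HLA-DM genes lay more deeply read neighbours: the peptide transporter genes TAP2 (656 and 1123 reads) and TAP1 (346 and 581), the immunoproteasome gene PSMB8 (980 and 1209) and BRD2 (3949 and 4837), a bromodomain gene that adjoins HLA-DMA. From HLA-DRA to HLA-DQB2, and from HLA-DOA to HLA-DPB2, the genes that are no HLA gene were at 0 in both libraries.

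By counted reads, HLA-DOB, the beta chain of the HLA-DM inhibitor HLA-DO, was the exception among the HLA genes of the region. It had 204 reads in Vector against 283 in the library labelled OE-UNC5B, or 4.75 and 5.78 FPKM, with a log2 fold change of 0.23 (-0.03 to 0.50). That was 8.23 times the FPKM of HLA-DRA in Vector against 5.12 times in the library labelled OE-UNC5B. Its alpha chain partner HLA-DOA had 0 reads in both libraries. The list of other class II locus genes and pseudogenes used here leaves out HLA-DQB3 (0 reads in both). Of its genes, 11 were found by name in the expression table. Of these 11, 9 had no reads, and HLA-DPB2, a pseudogene, had 0 and 2. HLA-DRB3 and HLA-DRB4 were on the list but were not found under these names.

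**Figure D3:**
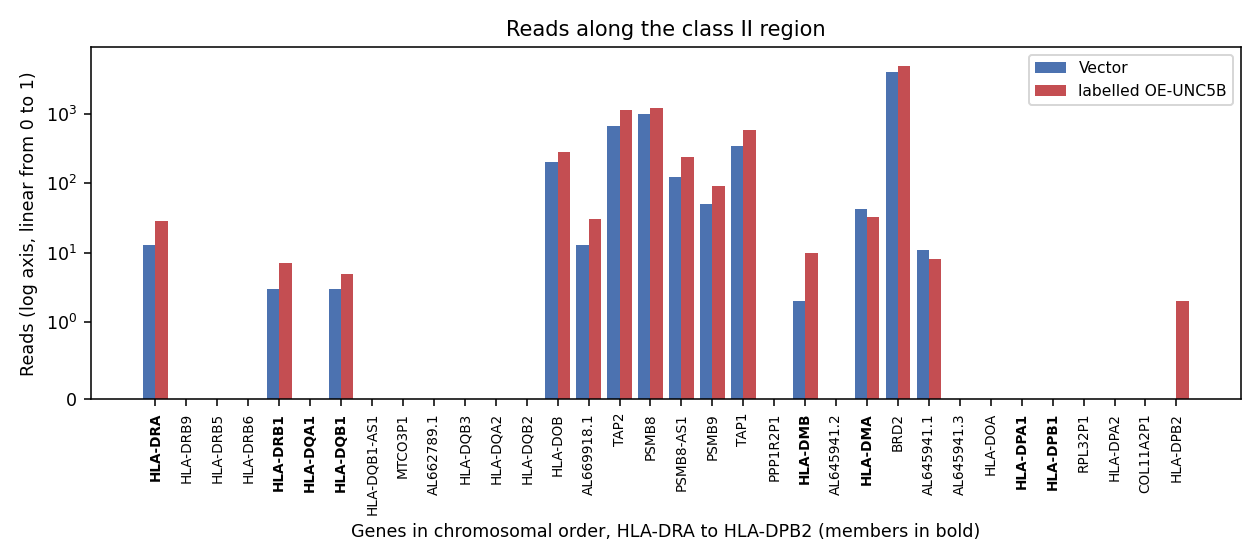
Reads of the 34 genes from HLA-DRA to HLA-DPB2 in genome order (horizontal axis, gene order and not distance) in Vector and the library labelled OE-UNC5B, on a log axis that is linear from 0 to 1. HLA-DOB, with 204 and 283 reads, stands above the other HLA genes of the region, and TAP2, PSMB8, TAP1 and BRD2 stand above HLA-DOB.

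Reads of several members could be shared with a neighbour or a copy. All 75-base windows of the canonical transcripts of HLA-DRA and CD74 occurred in no other gene of the annotation, and 97.6% of those of HLA-DRB1, the rest being shared with HLA-DRB5 (0 reads in both). For HLA-DMB 71.3% and for HLA-DMA 92.6% occurred nowhere else. Both share windows with a transcript that joins them, named AL645941.2 in the table, which had 0 reads in both libraries. CIITA (80.9% in no other gene) overlaps DEXI, a gene on the opposite strand with 154 and 120 reads, and HLA-DMA overlaps BRD2 on the opposite strand over 55 exonic bases. Whether strand was used in counting is not given in the sources used here, so that the reads of such pairs cannot be told apart and the 22 to 43 reads of CIITA and HLA-DMA are uncertain in their source. In GENCODE 44, CIITA also shares exonic bases with AC133065.1 on the opposite strand (0 and 2 reads) and AC133065.3 on its own strand (7 and 17 reads). Added up, CIITA, DEXI and AC133065.1 had 176 reads in Vector against 164 in the library labelled OE-UNC5B, with a fold of 0.791 (0.635 to 0.984), and with AC133065.3 added the fold was 0.839 (0.680 to 1.04). DEXI holds most of these reads and sets the direction of both sums, which is opposite to that of CIITA alone. For HLA-DOB 63.7% occurred in no other gene, the rest being shared with AL669918.1 (13 and 30 reads). On the same strand, AL669918.1 spans TAP2 (656 and 1123 reads) and ends inside HLA-DOB. Whether reads counted for HLA-DOB came from such a joined transcript was not tested.

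Most partners of CIITA at the promoter had more reads than CIITA. RFX5, a subunit of the RFX complex that binds the X box, had 920 reads in Vector against 1359 in the library labelled OE-UNC5B, and its FPKM was 94.99 and 73.5 times that of CIITA. RFXAP had 372 and 673 reads and RFXANK 604 and 906, so that all subunits of the complex were present. Of the 14 genes on the list of class II transcription factors and coactivators, 13 had at least 10 reads, and ZXDA, a zinc finger gene, had 1 in each library. None of these 13 was past 2-fold in either direction, beside 5.15% higher and 4.79% lower over all genes. The interval lay above equality for 9 and below it for 0, beside 25.1% and 26.3% of all genes compared, and the median log2 fold change was 0.33. The most read were EP300 (2030 and 3393 reads, log2 fold change 0.50), an acetyltransferase, and NFYA (1350 and 1691, 0.09), a subunit of NF-Y.

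Of 18 genes that control CIITA with at least 10 reads, 4 had an interval above equality and 4 below it, with a median of -0.03, and these shares were near the 25.1% and 26.3% over all genes. IRF1, a factor through which interferon gamma induces CIITA, had 428 and 476 reads with a log2 fold change of -0.08. IRF8, a myeloid interferon regulatory factor, had 3950 and 3259 reads with -0.51. SOCS3, an inhibitor of JAK signalling, was the 1 of 18 past 2-fold, a share near the 4.79% lower over all genes, with 170 reads in Vector against 71 in the library labelled OE-UNC5B and a log2 fold change of -1.49 (-1.92 to -1.09). NLRC5, the class I counterpart of CIITA, had 996 and 1000 reads, at 48.5 and 25.5 times the FPKM of CIITA.

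The list of endosomal processing and loading, which holds the proteases that cut CD74 and antigen, their inhibitors and sorting genes, ranged from CTSE, cathepsin E, at 0 reads in both libraries to CLTC, the clathrin heavy chain, at 5405 and 5265. Of 19 genes with at least 10 reads on that list, none was past 2-fold, beside 5.15% higher and 4.79% lower over all genes. The interval lay above equality for 6 and below it for 8, beside 25.1% and 26.3%, and the median was -0.11. CTSS, cathepsin S, which makes the last cuts in CD74, had 1151 reads in Vector against 1469 in the library labelled OE-UNC5B, with a log2 fold change of 0.11. IFI30, the lysosomal thiol reductase, had 257 and 180 reads, with -0.75 (-1.03 to -0.47). LGMN, an asparagine-specific protease, had 2 reads in each. Of the 11 trafficking genes with at least 10 reads, none was past 2-fold, with 2 intervals above equality and 4 below, beside the same shares over all genes, and a median of -0.14. MARCHF1, the ubiquitin ligase that takes class II off the surface, had 8 and 5 reads, and its relative MARCHF8 had 164 and 175.

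On the costimulation list 1 gene was past 2-fold upward. CD80, a ligand of CD28, had 2 reads in Vector against 13 in the library labelled OE-UNC5B, with a ratio of 5.52 (1.25 to 50.3). Like HLA-DMB, CD80 passed the filter of 10 reads through its higher library, and it belongs to the genes with at most 20 reads, of which 16.04% were at least 2-fold higher. CD86, the other CD28 ligand, had 114 and 253 reads and a log2 fold change of 0.91 (0.59 to 1.24), which is under 2-fold. Of 10 genes with at least 10 reads on this list, 6 had an interval above equality and 2 below it, beside 25.1% and 26.3% of all genes, with a median log2 fold change of 0.31. CD4, the coreceptor that binds class II, had 1757 and 2563 reads. On the class I list, 17 genes had at least 10 reads, 9 with an interval above equality and 7 below (median 0.07), which can be read against the same 25.1% and 26.3%, and CALR, an endoplasmic reticulum chaperone, was past 2-fold with 20310 and 9084 reads (log2 fold change -1.40). Over all pathway lists 89 genes were compared, of which 1 was at least 2-fold higher (CD80) and 2 were at least 2-fold lower (SOCS3 and CALR), against the 5.15% and 4.79% over all genes.

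**Figure D4:**
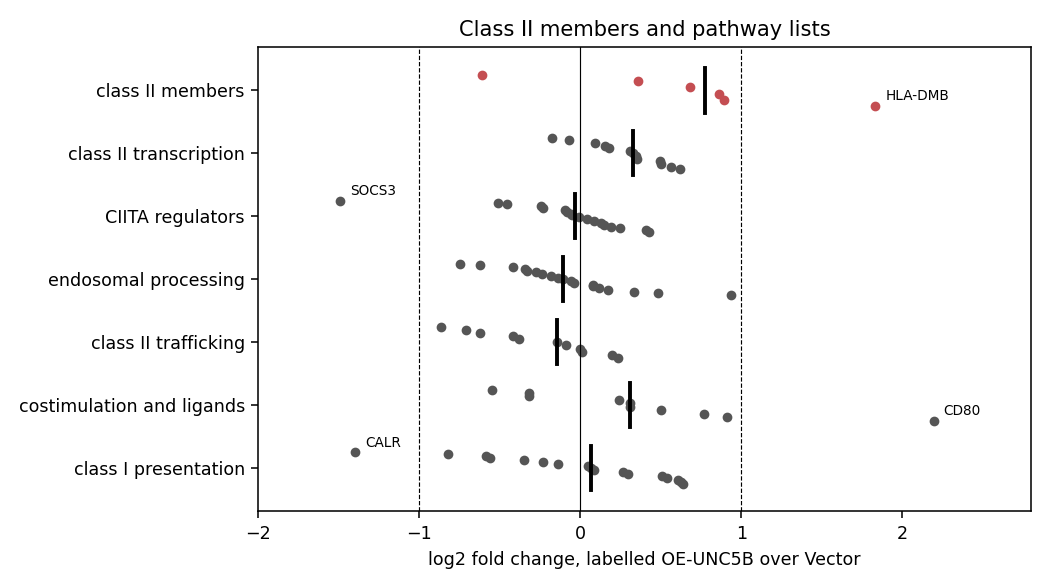
Log2 fold change of the library labelled OE-UNC5B over Vector for the genes of each pathway list with more than 1 gene compared and for the class II members, where 10 or more reads were counted in all, with 1 point per gene, a black line at the median of each list and dashed lines at 2-fold. The medians run from -0.14 for trafficking to 0.77 for the members, and past the dashed lines lie HLA-DMB and CD80 upward and SOCS3 and CALR downward.

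The labelled cell type was checked against its markers, and the markers of other cell types that use class II were read as well. All 14 markers of leukaemic myeloid cells had reads in each library, but KIT had only 2 and 1 and CD14 only 4 and 5. The sum of the 14 was 9787 CPM in Vector against 5289 CPM in the library labelled OE-UNC5B. Of the 12 with at least 10 reads, 5 were higher and 7 lower at any size. Their intervals lay above equality for 2 and below it for 7, beside 25.1% and 26.3% of all genes compared. Of the 12, 3 were at least 2-fold lower, beside 4.79% of all genes: LYZ, lysozyme, with 51742 and 23700 reads, PRTN3, a granule protease, with 33387 and 13614, and MPO, myeloperoxidase, with 3363 and 1553. The sum mostly follows LYZ and PRTN3. FLT3, a receptor kinase, had 4067 and 6395 reads with a log2 fold change of 0.42 (0.36 to 0.47), and CD33 had 1775 and 2299 with 0.14 (0.05 to 0.23). The part of these differences in the class II values was not tested. Of 8 B cell markers 5 were at 0 in both libraries, including MS4A1 and CD79B, and the 8 summed to 4 and 14 reads, with CD79A at 3 and 10. Of 10 dendritic cell markers 6 were at 0 in both, including CD1C and CLEC9A, with a sum of 215 and 317 reads, most of them from TCF4 (190 and 280). Of 8 macrophage markers 5 were at 0 in both, with a sum of 52 and 28 reads, of which MARCO gave 41 and 18. The 7 T cell markers summed to 449 and 499 reads, mostly TRAC (379 and 395) and then CD3D (67 and 102), with CD3E at 1 and 0. Of 5 endothelial markers 3 were at 0 in both, with PECAM1, which myeloid cells also express, at 1626 and 1471 reads, and the 5 fibroblast markers summed to 31 and 11 reads, with COL1A1 at 21 and 9 and COL1A2 at 8 and 2. The 5 markers of HEK293, the line that packaged the virus, summed to 5 and 2 reads, with 4 at 0 in both.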

How the data were processed

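A single table held both libraries. It gives, per gene, raw read counts as deposited by the authors, without normalization. FPKM values, which scale the reads to gene length and to the counted reads of a library, were deposited beside them. The processing notes name bcl2fastq 2.19, HISAT2 2.0.4, StringTie 1.3.0 and GRCh38, with no roles. How reads were counted, with which annotation and whether by strand, is not given in the sources used here.

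Library sizes were adjusted by TMM factors of 0.984 and 1.02 in edgeR 4.0.16 under R 4.3.3. Log2 fold changes used 0.5 added reads. Folds with their intervals are ratios of the reads with no reads added. Genes whose reads summed to 10 or more were compared and called at 2-fold on the log2 scale with added reads. Intervals are 95% Clopper-Pearson (scipy 1.17.1) and cover counting error alone. Median reads of these genes were 269.5 and 316. Lengths, overlaps and 75-base windows came from GENCODE 44. The procedure was tested on simulated data with counting error alone and with changes put only into genes with at least 50 reads. That test cannot speak to spread between cultures or to changes in genes with fewer reads.

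Members and lists were chosen with earlier results of these data known. By rule, the text names all members, UNC5B, genes of the pathway lists past 2-fold, other class II locus genes with reads, and up to 3 of the most read genes of a list. Other genes, markers included, are named for their role and were chosen after their values were seen. The alternatives are given in the closing section. Some genes of the lists are not reported here by name.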

Additional observations from a re-analysis of the deposited data

How the results depend on the processing

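With 1 library per group, no setting could measure the spread between cultures, and no library could be left out. No paired analysis was possible because each group held 1 library. Under library totals, DESeq2 1.42.0 size factors, 2 added reads and the deposited FPKM plus 0.1 or plus 1, 22 log2 fold changes of members were recomputed and 0 changed direction. The log2 fold change of HLA-DRA was 0.43 with FPKM plus 1 in place of 0.89. The median of the members, 0.77, was 0.41 with FPKM plus 1 (2 members) and 0.36 with at least 50 reads (3 members). HLA-DMB, the 1 member at least 2-fold higher, rests on 12 reads. The count was 0 with the deposited FPKM plus 0.1 or plus 1 and a minimum of 1 FPKM (2 members left), with at least 50 reads (3 left), at 4-fold (the log2 value of 1.83 with 0.5 added reads is under it, the ratio of 4.24 without them is not), with the exact binomial test on the reads, and in edgeR's exact test with an assumed coefficient of variation of 0.2 or 0.4. At 1.5-fold, 4 members were higher and 1 was lower. Without CD74, the log2 ratio of the summed FPKM was 0.49 in place of 0.41. Among pathway genes, the 1 higher became 3 without a filter, 8 at 1.5-fold and 0 with FPKM plus 0.1 or plus 1, at least 50 reads and both assumed variations, and the 2 lower became 8 without a filter, 8 at 1.5-fold and 0 at 4-fold and with both assumed variations. Over all genes, the 792 higher and 737 lower became 392 and 281 (FPKM plus 0.1), 165 and 130 (FPKM plus 1), 2886 and 3079 (no filter), 359 and 297 (at least 50 reads), 1989 and 1925 (1.5-fold), 154 and 177 (4-fold), 131 and 121 (variation 0.2), 7 and 8 (variation 0.4) and 522 and 521 with the binomial test. Length by canonical transcript, the sums of the classical chains and of CIITA with overlapping genes, and the partners of CD74 were added after the data were seen.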

Other observations

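CD74 is also a receptor for the cytokine MIF on the cell surface, together with CD44 and the chemokine receptors CXCR4, CXCR2 and ACKR3. These genes were named after the values of the class II members were seen. MIF had 4005 reads in Vector against 2595 in the library labelled OE-UNC5B, with a log2 fold change of -0.86 (-0.93 to -0.79), the opposite sign to CD74. CXCR4, the receptor for CXCL12, had 2387 and 1784 reads, with -0.66. CD44, an adhesion receptor, had 1422 and 1688 reads, with 0.01, and CXCR2 had 130 and 142 reads, with -0.11. ACKR3 had 0 reads in both libraries. No difference among these has a replicate check.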
